A study of Mus musculus with 12 samples.

Results

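Chromatin accessibility was examined at 6 genes, the coactivators Ppargc1a, Ppargc1b and Pprc1 and the nuclear receptors Esrra, Esrrb and Esrrg. ATAC-seq, in which a transposase cuts open DNA and tags it for sequencing, was performed on mouse brown fat and on inguinal white fat (iWAT), and each tissue has 1 deposited table of peaks, that is, of stretches of open chromatin. All peaks that the deposited tables assign to 1 of the 6 symbols were taken, whatever their values, which gave 121 of 98116 peaks. Of these, 91 were among the 58558 peaks of the brown fat table and 30 among the 39558 peaks of the iWAT table. Ppargc1a had 33 peaks in brown fat and 6 in iWAT, Ppargc1b had 21 and 8, Esrrg 24 and 7, and Esrrb 11 and 7. Pprc1 and Esrra each had 1 peak per tissue, over the start of the gene. In the control mice, flox, both alleles of BAF60a (Smarcd1), a subunit of SWI/SNF chromatin remodelling complexes, carry loxP sites. In the AKO mice the same alleles are deleted by a Cre driven from the Adiponectin promoter, which is active in white and brown adipocytes, so that the other cells of the tissue keep BAF60a. Brown fat came from 3 flox and 3 AKO mice, each frozen on its own, and the temperature at which they had been housed is not given in the sources used here. For iWAT, the fat pads of 6 mice per genotype, 6 to 8 months old and kept at 10 °C for 7 days, were pooled and minced, and 3 aliquots of each pool were processed. The p-values in iWAT therefore measure only the spread between aliquots of 1 pool per genotype. All mice were of the C57BL/6 background.

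PGC-1α, the product of Ppargc1a, does not bind DNA. It is recruited by nuclear receptors and other transcription factors, and switches on genes of mitochondrial respiration, fatty acid oxidation and, in brown adipocytes, the uncoupling protein Ucp1. PGC-1β (Ppargc1b) and PRC (Pprc1) are its relatives, and the estrogen-related receptors ERRα, ERRβ and ERRγ (Esrra, Esrrb and Esrrg) are orphan receptors that bind the sequence TCAAGGTCA and use PGC-1 proteins in place of a ligand. In cold, β-adrenergic signalling through cAMP and protein kinase A acts on a cAMP response element, TGACGTCA, before the start of Ppargc1a.

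The sequences below are stretches from peaks described here, some of which hold these elements and some of which do not. They were read from RefSeq GRCm38.p6, the assembly that mm10 stands for, 5′ to 3′ on the strand given, and all lie within peaks of the brown fat table. Capitals mark a cAMP response element, an ERR element or its core AAGGTCA (written here from the other strand, as TGACCTT), or an EBF core, CCCNNGGG, the sequence read by early B-cell factors, which act in brown adipocytes. The first site was chosen because it lies in the peak over the principal start of Ppargc1a. Its cAMP response element ends 76 bases before the start of the principal transcript, on the minus strand of chr5:51553987-51554016, and the stretch also falls in an exon of a predicted RefSeq model. The next stretch, on the minus strand of chr5:51567727-51567976, is the DNA before the upstream start of Ppargc1a and is shown without capitals because none of these elements is in it. The peak at chr5:51582642-51582925, shown on the plus strand, lies upstream of the gene, and was chosen after its values were seen. The next pair of stretches, on the minus strand of chr5:51039915-51040041 and chr5:51041605-51041731, surround the ERR cores of the strongest Ppargc1a peak. The stretch after them, on the minus strand of chr19:6922277-6922370, holds the ERR element before the start of Esrra. The last, on the plus strand of chr1:187645246-187645438, is an intronic Esrrg peak whose normalized reads were higher in every AKO sample of brown fat. It had the smallest p of the Esrrg peaks there and holds none of these elements.
Ppargc1a, site before the principal start: ctgccttggagTGACGTCAggagtttgtgc
Ppargc1a, before the upstream start: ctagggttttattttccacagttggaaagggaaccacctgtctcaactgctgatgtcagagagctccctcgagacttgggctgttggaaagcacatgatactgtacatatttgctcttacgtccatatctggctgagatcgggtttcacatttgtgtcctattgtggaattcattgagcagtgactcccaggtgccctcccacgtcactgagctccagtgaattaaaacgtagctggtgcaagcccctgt
Ppargc1a, upstream peak: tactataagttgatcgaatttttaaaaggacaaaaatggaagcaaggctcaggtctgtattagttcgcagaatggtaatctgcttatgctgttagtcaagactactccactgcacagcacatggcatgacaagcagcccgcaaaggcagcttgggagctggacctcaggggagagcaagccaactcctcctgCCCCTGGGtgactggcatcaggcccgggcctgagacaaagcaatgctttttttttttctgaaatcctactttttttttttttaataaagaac
Ppargc1a, around the first ERR core of the strongest peak: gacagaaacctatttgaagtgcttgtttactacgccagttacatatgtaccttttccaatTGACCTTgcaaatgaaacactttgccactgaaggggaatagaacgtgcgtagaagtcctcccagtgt
Ppargc1a, around the other ERR core of the strongest peak: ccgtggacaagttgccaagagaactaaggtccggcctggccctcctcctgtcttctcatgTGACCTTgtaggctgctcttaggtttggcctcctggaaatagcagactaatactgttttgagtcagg
Esrra, around the ERR element: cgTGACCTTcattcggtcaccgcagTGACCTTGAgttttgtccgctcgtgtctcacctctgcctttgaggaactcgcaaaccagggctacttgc
Esrrg, intronic peak: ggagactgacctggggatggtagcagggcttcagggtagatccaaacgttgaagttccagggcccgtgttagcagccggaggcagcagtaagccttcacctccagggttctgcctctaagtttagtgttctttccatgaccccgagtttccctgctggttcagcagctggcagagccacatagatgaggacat

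The values are read counts scaled by the size factor of each sample, called normalized reads here. Reads in peaks of brown fat ran from 10115267 to 27500738 for flox and from 6336670 to 13821838 for AKO, and from 4237080 to 6691161 in flox and 4066720 to 4420019 in AKO iWAT, so that the flox samples were on the whole the deeper ones. The main axis of variation in brown fat, principal component 1 (PC1), held 55.6% of the variance. Its scores were -98.2, -41.8 and 14.6 in flox and -0.62, 112 and 13.5 in AKO, so that AKO sample 2, the shallowest of the 6, lay at one end and flox sample 1, the deepest, at the other. PC1 was a covariate in the brown fat test, as in the study's own model, and values without it are given beside some of the counts, medians and peaks. Brown fat fits, counts and medians given only with PC1 can also move without it. A difference is given as the fitted log2 fold change of AKO minus flox on the log2(normalized reads + 1) scale with its SE, and a call is a limma adjusted p under 0.1 over all peaks of the table. With 3 against 3 samples, a test on ranks alone cannot go below an exact p of 0.1. In bulk tissue, fewer nuclei of a cell type and lower accessibility in each nucleus cannot be told apart.

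In brown fat, the peaks of Ppargc1a and Ppargc1b lay mostly on the lower side in AKO. Most of the peaks at which the genotypes separated belonged to these genes. limma called 0 of the 91 peaks, with a smallest adjusted p of 0.44, and 0% of all 58558 peaks. At an unadjusted p under 0.05, limma had 17 of the 91 lower and 1 higher in AKO, against 5.59% and 3.46% of all peaks. Without PC1, 15 were lower, against 4.37% of all peaks. DESeq2, which gave no adjusted p at 26 of them, and edgeR also called 0 of the 91 (0.297% and 0.143% of all peaks), with 17 and 20 lower and 0 and 1 higher at an unadjusted p under 0.05. Every AKO sample lay below every flox sample in 18 of the 91 peaks and above in 4, where the whole table had 8.84% and 8.77%. The fitted log2 fold change was below 0 at 68 of the 91, against 49.1% of all peaks, with a median of -0.21 against 0.0067. By gene, these were 33 of 33 Ppargc1a, 16 of 21 Ppargc1b, 15 of 24 Esrrg and 4 of 11 Esrrb peaks. The Pprc1 and Esrra peaks were above 0. Without PC1, 58 of the 91 were below 0, against 51.7% of all peaks. Of the 18 peaks below flox, 9 belonged to Ppargc1a, 7 to Ppargc1b and 1 each to Esrrb and Esrrg. The count of 17 at an unadjusted p under 0.05 was 8 without flox sample 2 or without AKO sample 3, 11 without AKO sample 1, and 15 without AKO sample 2.

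All 33 Ppargc1a peaks of brown fat had a fitted log2 fold change below 0, from -1.30 to -0.04 with a median of -0.55. In 9 of them every AKO sample lay below every flox sample, in 0 above, and 14 had an unadjusted limma p under 0.05. The 33 peaks come from the same 6 samples and are not replicates of each other. Without PC1, 27 of the 33 were below 0 (51.7% of all peaks), with a median of -0.40, and 8 had an unadjusted p under 0.05. Of the 14 and the 8 peaks, 4 were the same, that is, 4 of 14 and 4 of 8. The 14 peaks within 100 kb of an annotated start, 5 of them below flox in every AKO sample, had a median of -0.61, and of -0.59 without PC1. The 19 peaks farther away, 4 of them below flox, had a median of -0.48 with PC1 and of -0.19 without it, where 14 of the 19 were below 0 and 2 had an unadjusted p under 0.05. The farther peaks are assigned to Ppargc1a as the nearest gene, and some lie far beyond its end.

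The peak over the principal start of Ppargc1a (chr5:51551957-51554214), which holds the cAMP response element printed above, had 773, 716 and 737 normalized reads in the flox mice and 532, 425 and 555 in the AKO mice. The genotypes did not overlap there. The fitted change was -0.40 ± 0.18 (SE, n = 3 per genotype, limma adjusted p = 0.58), and -0.57 without PC1. The smaller peak over the upstream start (chr5:51567562-51568263) had 207, 130 and 124 in flox and 90.7, 81.1 and 75.8 in AKO tissue, again without overlap, and a fitted change of -0.58 ± 0.25. From this start outwards, the 6 AKO and flox values stayed apart at 3 more of the upstream peaks.

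At the upstream peak printed above (chr5:51582642-51582925), 15.1 kb before the upstream start, flox had 116, 132 and 140 and AKO had 87.6, 114 and 87.3 normalized reads. Its fitted change was -0.68 ± 0.17 (limma adjusted p = 0.44), and -0.43 without PC1. At 24.2 kb before that start (chr5:51591533-51592265) the values were 504, 511 and 395 in flox and 344, 236 and 352 in AKO. At 28.1 kb (chr5:51595595-51596070) they were 307, 265 and 344 against 214, 158 and 191, with a fitted change of -0.60 ± 0.23. The first 2 of these peaks and the upstream start peak were singled out after their values were seen.

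Inside the gene, 7 intronic peaks had small signals and fitted changes with a median of -0.83, and in 0 of them did the genotypes separate. The smallest p of the gene was in intron 2 (chr5:51501313-51501585, which overlaps the predicted transcript Gm42613), with 50.2, 73.9 and 62.1 normalized reads in flox and 27.8, 67.6 and 28.8 in AKO. The fitted change of -1.30 ± 0.30 (limma adjusted p = 0.44) was -0.68 without PC1. Here AKO sample 2, the sample with the highest PC1 score, lay within the flox range and the other two AKO samples below it.

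The strongest of the Ppargc1a peaks lay 513 kb beyond the start, outside the gene (chr5:51039675-51041867), and holds the pair of ERR cores printed above. It had 1710, 1708 and 1664 normalized reads in flox and 1269, 1010 and 1150 in AKO. The 3 AKO samples were all below the narrow flox range, with a fitted change of -0.44 ± 0.18 (limma adjusted p = 0.54). DESeq2 without PC1, tried after the data were seen, called this peak with an adjusted p of 0.053. A second strong distal peak, 278 kb from the start (chr5:51275445-51277154), had 938, 1190 and 1128 in flox and 705, 819 and 888 in AKO.

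**Figure D1:**
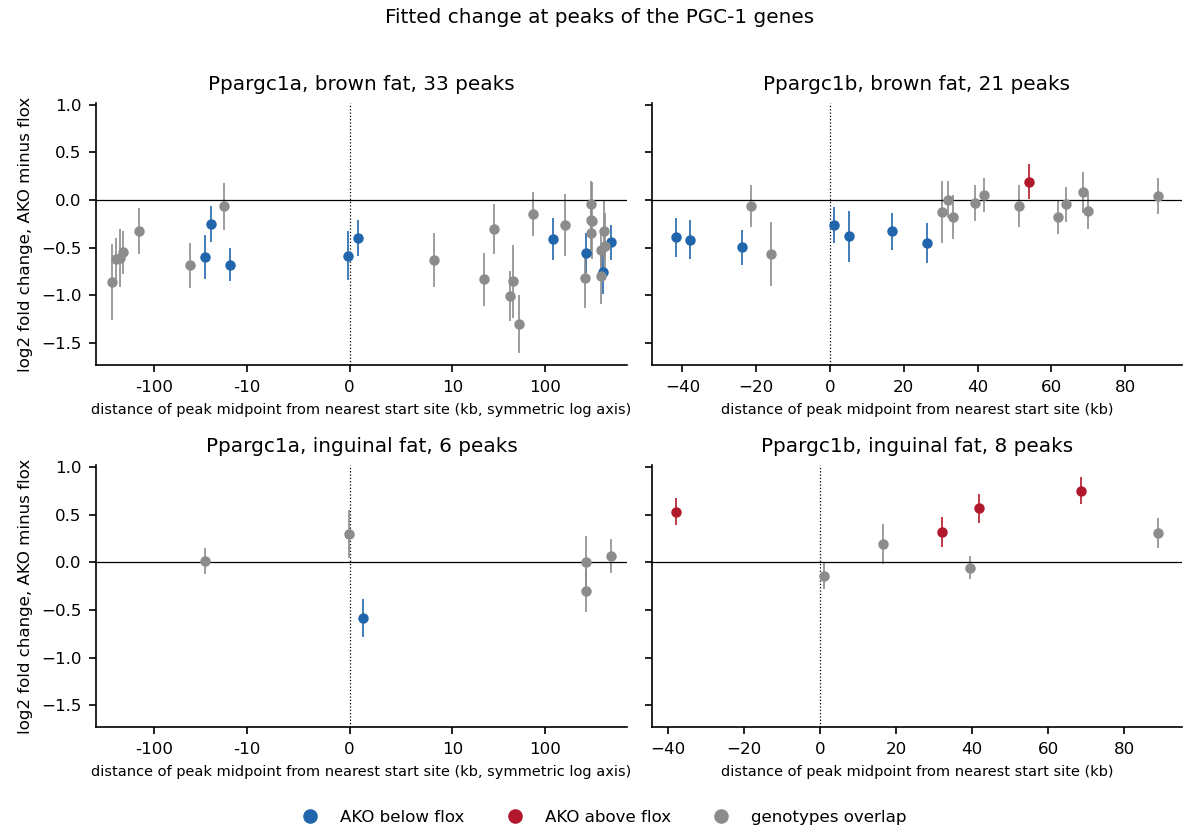
Fitted log2 fold change (AKO minus flox, points, with SE as bars) of each Ppargc1a and Ppargc1b peak against the distance of its midpoint from the nearest annotated start in kb, negative upstream, with a symmetric log axis for Ppargc1a. Blue points have every AKO sample below every flox sample, red points the reverse. All 33 Ppargc1a peaks of brown fat lie below 0, and the blue Ppargc1b points of brown fat lie upstream and in the first part of the gene, while 4 of 8 Ppargc1b peaks of iWAT are red.

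At Ppargc1b, on chromosome 18, the lower values in brown fat stood upstream and in the first part of the gene. All 5 upstream peaks had a fitted change below 0 (median -0.41) and 3 of them had every AKO sample below every flox sample. The start peak and the 2 peaks within the next 20 kb of the gene also had all AKO samples below flox. The 13 peaks farther into the gene had a median of -0.04, with 1 below and 1 above. The 1 below, 26.3 kb into the gene, had a fitted change of -0.45, against -0.33 and -0.38 at the 2 peaks within 20 kb. The limit of 20 kb was not planned. Over all 21 peaks, 7 were below flox and 1 above, and 1 had an unadjusted limma p under 0.05.

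The start peak (chr18:61397601-61400964) had 3105, 3240 and 2381 normalized reads in flox and 2167, 1767 and 2160 in AKO, with a fitted change of -0.26 ± 0.19 (limma adjusted p = 0.72) and of -0.51 without PC1. The smallest p was 23.8 kb upstream (chr18:61423857-61424584), where flox had 860, 871 and 796 and AKO had 611, 479 and 530. Its fitted change was -0.49 ± 0.18 (limma adjusted p = 0.52). At 37.9 kb upstream (chr18:61437771-61438827), the strongest Ppargc1b peak per kb in flox, the values were 1759, 1743 and 1714 in flox and 1266, 831 and 1225 in AKO, with a fitted change of -0.41 ± 0.21 and of -0.68 without PC1. The genotypes were apart at all of these peaks, and DESeq2 without PC1 called the last 2, with adjusted p of 0.042 and 0.061.

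Pprc1 and Esrra showed no separation of the genotypes in brown fat. The Pprc1 start peak (chr19:46055867-46057421) had 921, 885 and 746 normalized reads in flox and 839, 647 and 908 in AKO. The Esrra start peak (chr19:6920139-6922518) had 2857, 2437 and 2159 in flox and 2362, 1576 and 2388 in AKO. Both lay lower in AKO by their means, and AKO sample 2 was the lowest of the 6 at each. The sign of the fit depended on PC1, with 0.18 ± 0.18 for Pprc1 and 0.13 ± 0.18 for Esrra with it (limma adjusted p = 0.79 and 0.84), and -0.10 and -0.25 without it.

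Of the 11 Esrrb peaks of brown fat, 1 lay below and 1 above flox in every AKO sample. Both counts were near the shares of all brown fat peaks, 8.84% below and 8.77% above. The median fitted change was 0.10. The 1 below, 35.0 kb beyond the last start and downstream of the gene (chr12:86538547-86540186), had 453, 429 and 400 normalized reads in flox and 264, 371 and 254 in AKO. Its fitted change of -0.70 ± 0.23 (limma adjusted p = 0.49) had the smallest p of the gene and, at 0.18, the smallest DESeq2 adjusted p of the 91 peaks. The start peak (chr12:86421487-86422599) had 101, 146 and 168 in flox and 153, 226 and 212 in AKO, and the genotypes overlapped (0.11 ± 0.23, limma adjusted p = 0.91). The fitted value at the start was 0.52 without PC1 and turned to -0.10 without AKO sample 3.

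Of the 24 Esrrg peaks of brown fat, every AKO sample lay above every flox sample at 2 and below at 1, with a median fitted change of -0.09. Of all brown fat peaks, 8.77% were above and 8.84% below. Separation at the Esrrg peaks was therefore no more frequent than over all peaks. Without PC1 that median was 0.023, and 15 of the 24 were above 0. At the intronic peak printed above (chr1:187645246-187645438), 35.6 kb into the gene, flox had 22.5, 25.9 and 20.7 normalized reads and AKO had 47.4, 65.7 and 39.3. The fitted change was 0.88 ± 0.26 (limma adjusted p = 0.48), and it ranged from 0.45 to 1.10 as each sample in turn was left out. At 42.6 kb into the gene (chr1:187651758-187652841) the values were 170, 185 and 191 in flox and 252, 286 and 248 in AKO, with a fitted change of 0.38 ± 0.17. At both intronic sites all AKO samples were above all flox samples. The first Esrrg start (chr1:187608470-187610778) had 922, 942 and 818 in flox and 708, 736 and 840 in AKO, which overlapped (-0.16 ± 0.19, limma adjusted p = 0.83).

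Per kb of peak width, the start peaks of the 6 genes differed widely in level. In flox brown fat, Esrra had 1044 ± 148 normalized reads per kb (SD, n = 3) and Ppargc1b 865 ± 137, and these ranges overlapped. Pprc1 followed with 547 ± 59.3, Esrrg with 387 ± 29.0, Ppargc1a with 329 ± 12.7 and Esrrb with 124 ± 30.9, and no neighbours in this order overlapped from Ppargc1b down. Among the 14075 brown fat peaks within 1 kb of a start, Esrra stood at the 95.9th percentile, Ppargc1a at the 42.6th and Esrrb at the 7.37th. In AKO brown fat the order was the same, and Ppargc1a, at 223 ± 30.7, was at the 19.3rd percentile and overlapped Esrrb at 177 ± 35.1. In flox iWAT, a table normalized separately, Esrra was again the highest at 407 ± 21.4, followed by Pprc1 at 268 ± 21.4 and Ppargc1b at 230 ± 3.45. Esrrb (136 ± 11.6), Ppargc1a (122 ± 39.6) and Esrrg (72.4 ± 18.2) each overlapped the next in this order. The called widths of a start peak differ between the tables, 2257 bp in brown fat and 346 bp in iWAT for Ppargc1a, and a level per kb moves with that width.

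**Figure D2:**
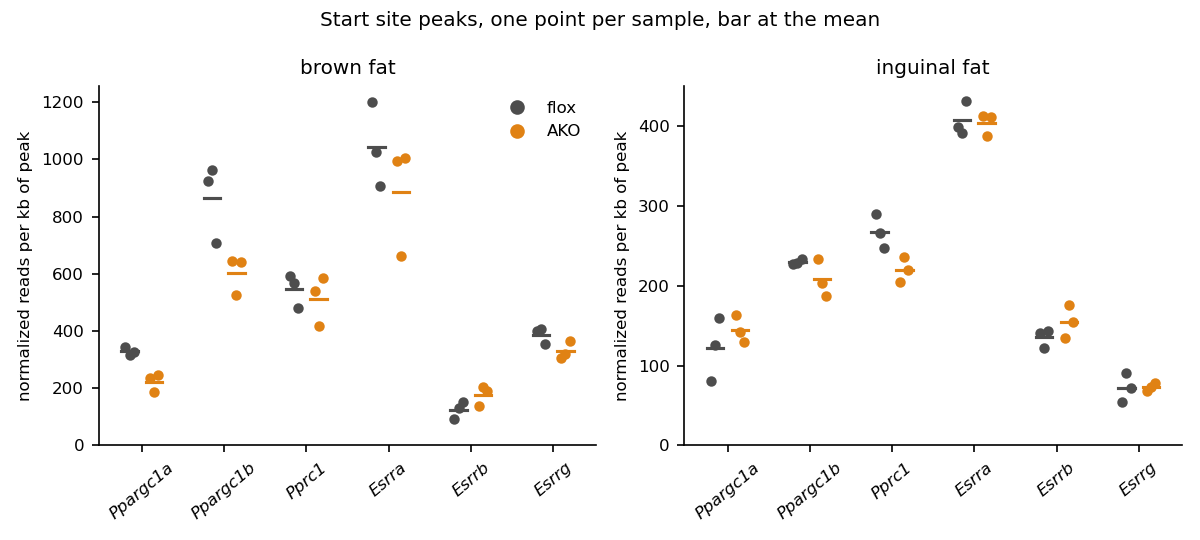
Normalized reads per kb of peak at the start peak of each of the 6 genes, with 1 point per sample (flox grey, AKO orange) and a bar at the mean of 3, for brown fat on the left and iWAT on the right, whose vertical scales differ. In brown fat all AKO points of Ppargc1a and Ppargc1b lie below the flox points, and those of the other 4 genes overlap them, while in iWAT the genotypes are apart at Pprc1 only.

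In iWAT, the peaks of the 6 genes lay on both sides, with those of Ppargc1b and Esrrb mostly higher in AKO. limma called 0 of the 30 and 0% of all 39558 peaks. DESeq2 also called 0 (1.06% of all peaks), while edgeR called 1 lower and 1 higher (4.67% of all peaks), as did limma with a trend, tried as an alternative (3.64% of all peaks). At an unadjusted p under 0.05, limma had 2 lower and 6 higher, against 7.42% and 7.61% of all peaks, DESeq2 had 2 and 5, and edgeR 3 and 6. Every AKO sample lay below every flox sample in 3 of the 30 and above in 7, where the whole table had 10.3% and 10.6%. Of the 30 fitted changes 10 were below 0, against 50.1% of all peaks. The 2 peaks on the lower side were 0 without flox sample 3 or without AKO sample 3, and 1 without AKO sample 1.

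Ppargc1a had 6 peaks in iWAT, of which 3 had a fitted change below 0, and 5 without flox sample 2. Its start peak (chr5:51553727-51554073) had 27.8, 43.4 and 55.1 normalized reads in flox and 56.5, 49.1 and 44.9 in AKO, which overlapped (0.29 ± 0.25, limma adjusted p = 0.62). The neighbouring peak in intron 1 (chr5:51552066-51553124) had 120, 87.8 and 145 in flox and 82.99, 77.6 and 69.5 in AKO, with all AKO samples below flox. Its fitted change was -0.58 ± 0.20 (limma adjusted p = 0.25). edgeR called this peak with an adjusted p of 0.049.

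Of the 8 Ppargc1b peaks in iWAT, 4 had every AKO sample above every flox sample, 0 had the reverse, and 3 had an unadjusted limma p under 0.05. The smallest p was 68.6 kb into the gene (chr18:61331554-61332089), where flox had 51.3, 45.6 and 57.7 normalized reads and AKO had 81.8, 85.6 and 94.1. Its fitted change was 0.75 ± 0.14 (limma adjusted p = 0.15), and edgeR called it with an adjusted p of 0.035. The start peak (chr18:61397947-61400759) had 639, 643 and 658 in flox and 657, 572 and 528 in AKO and overlapped (-0.15 ± 0.14, limma adjusted p = 0.65). The higher values thus stood at intronic and upstream sites and not at the start.

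The Pprc1 start peak of iWAT (chr19:46056089-46057443) had 393, 360 and 335 normalized reads in flox and 278, 320 and 298 in AKO, so that all AKO samples were lower (-0.28 ± 0.13, limma adjusted p = 0.38). The Esrra start peak (chr19:6920013-6922256) had 895, 878 and 968 in flox and 926, 871 and 924 in AKO, and its fitted change was -0.01 ± 0.12. All 7 Esrrb peaks had fitted changes above 0, from 0.18 to 0.84, and the highest was in an intron (chr12:86401785-86402004). There flox had 29.2, 13.3 and 24.1 and AKO had 50.7, 29.7 and 38.5, and the lowest AKO sample was only just above the highest flox sample. The Esrrb start peak (chr12:86421509-86421827) had 44.9, 38.9 and 45.6 in flox and 42.6, 55.9 and 49.2 in AKO and overlapped. Esrrg had its smallest p at an intronic peak (chr1:187698306-187698496), with 25.7, 20.01 and 23.2 in flox and 42.6, 26.3 and 38.5 in AKO (0.60 ± 0.21, limma adjusted p = 0.25), and the genotypes did not overlap. Its start peak (chr1:187609249-187610582) had 72.7, 121 and 95.5 in flox and 91.1, 98.2 and 105 in AKO, and the AKO values lay within the flox range.

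The tables of the tissues were compared at peaks that share at least 1 bp. The 6 genes had 28 such pairs, made of 26 brown fat peaks (28.6% of their 91, against 53.8% of all brown fat peaks) and 28 iWAT peaks (93.3% of their 30, against 80.5% of all). Ppargc1a had 29 brown fat peaks with no partner in iWAT, and these were weak, with a median flox mean of 70.3 normalized reads against 914 for the 4 with a partner. The fitted changes of a pair had the same sign in 15 and opposite signs in 13. At the start of Ppargc1a, the intron 1 peak of iWAT lies within the broad brown fat start peak, and AKO was below flox in every sample of both tissues. That was the only 1 of the 28 pairs with AKO below in both, against 1.05% of the 31936 pairs in all, and 0 pairs were above in both, against 1.2%.

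At the element 37.9 kb upstream of Ppargc1b the tissues lay on opposite sides. AKO was below flox in brown fat, as given above, while the iWAT peak within it (chr18:61438114-61438441) had 54.2, 48.9 and 51.6 normalized reads in flox and 72.6, 85.6 and 67.4 in AKO (0.53 ± 0.14, limma adjusted p = 0.19). It was the 1 pair of the 28 with brown fat below and iWAT above, against 0.83% of all pairs, and 0 of the 28 had the reverse, against 0.642%. iWAT came from pools of cold-exposed mice and brown fat from single mice whose housing is not given. The tissues were also sequenced on different instruments, and the longer iWAT reads were trimmed to the length of the brown fat reads. Tissue and these conditions cannot be told apart, and the difference between the tissues was not tested. The Esrrg element 42.6 kb into the gene was on the same side in both tissues. Its iWAT peak (chr1:187651790-187652044) had 25.7, 41.1 and 29.3 in flox and 57.6, 58.2 and 38.5 in AKO (0.67 ± 0.23), and there the lowest AKO sample was below the highest flox sample.

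**Figure D3:**
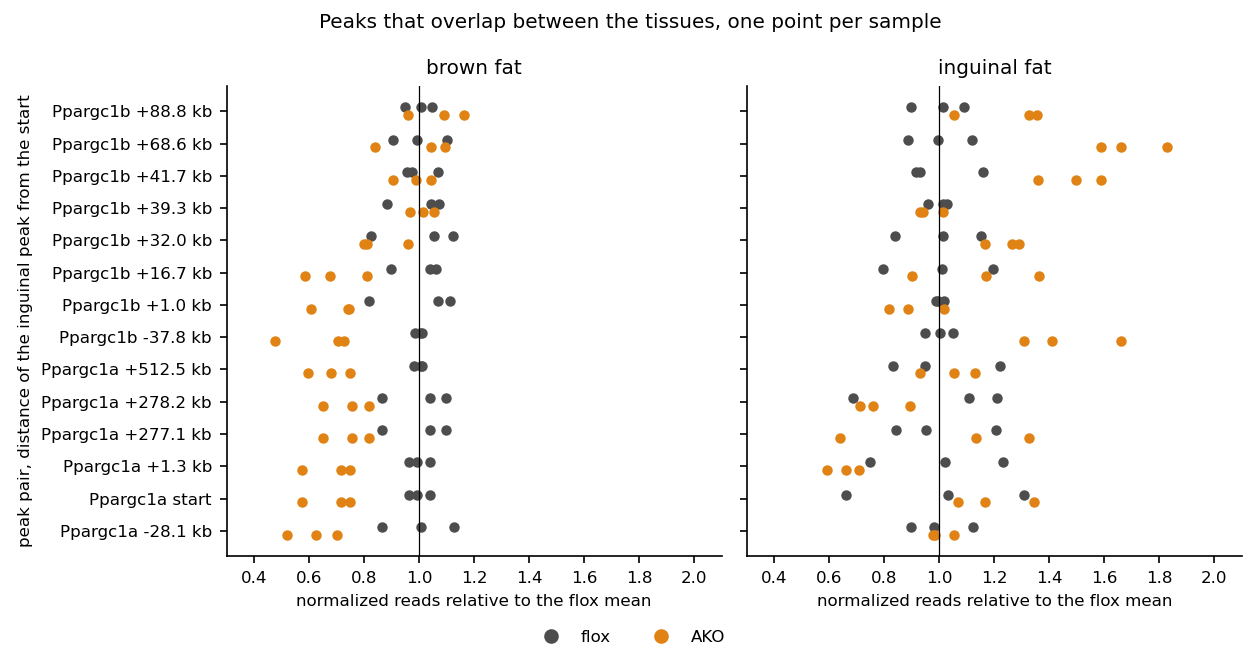
Normalized reads of each sample divided by the flox mean of that peak, for the 14 pairs of overlapping peaks of Ppargc1a and Ppargc1b, in brown fat on the left and iWAT on the right (flox grey, AKO orange). Pairs are named by the distance of the iWAT peak from the start, and where 2 iWAT peaks lie in 1 broad brown fat peak that peak is drawn for each. The Ppargc1b pair at -37.8 kb has AKO to the left of flox in brown fat and to the right in iWAT.

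The PC1 covariate moved the brown fat values unevenly among the genes. For the 91 peaks, the median was -0.21 with PC1 and -0.09 without it, and the fitted sign differed between the fits at 28 of them. Of the 17 peaks at an unadjusted p under 0.05 on the lower side with PC1 and the 15 without, 6 were the same. The sign differed at 6 of 33 Ppargc1a peaks, 6 of 21 of Ppargc1b, 4 of 11 of Esrrb and 10 of 24 of Esrrg. Ppargc1b had 6 peaks in place of 1 lower at an unadjusted p under 0.05 without PC1. Without PC1, DESeq2 called 3 of the 91 peaks, all lower in AKO and all named above, and 0.517% of all peaks as lower. PC1 goes with depth and in part with genotype in these samples, and its part in the results was not tested beyond these fits.

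**Figure D4:**
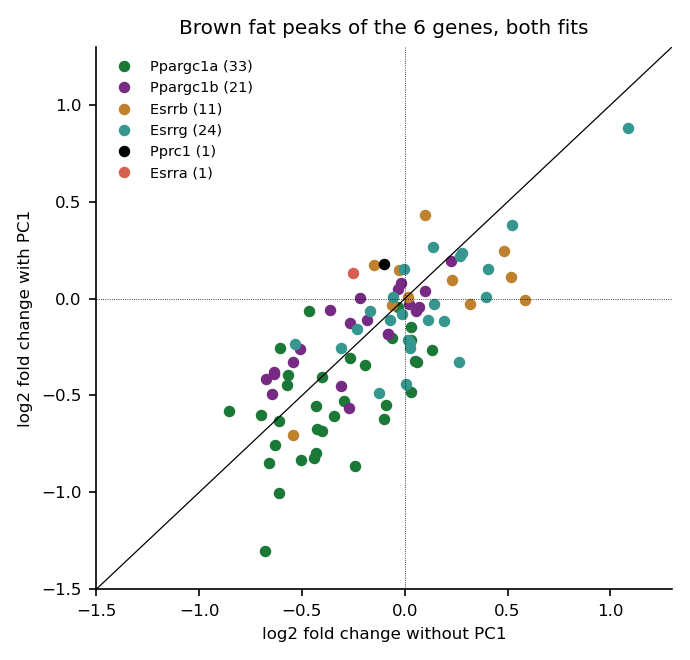
Fitted log2 fold change (AKO minus flox) of the 91 brown fat peaks with the PC1 covariate on the vertical axis and without it on the horizontal axis, colored by gene, with the line of equal values. Points of Ppargc1a lie mainly below the line and left of 0, and Pprc1 and Esrra lie above 0 with PC1 and below 0 without it.

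The elements were then counted in the peaks on both strands. The full ERR element TCAAGGTCA was in 3 of the 91 brown fat peaks (3.30%, against 1.75% of all brown fat peaks), 2 of Ppargc1b and 1 of Esrra. The Ppargc1b peaks were those 16.0 and 23.8 kb upstream. The core AAGGTCA, which the full element contains, was in 17 (18.7% against 14.5%), of which 5 were Ppargc1a peaks. The cAMP response element was in 2 (2.20% against 1.48%), the Ppargc1a start peak and an intronic Esrrg peak, and the EBF core CCCNNGGG in 29 (31.9% against 32.0%). A repeat of AGGTCA spaced by 1 base, the kind of site that PPARγ with RXR binds, was found with up to 2 mismatches in 13 (14.3% against 11.96%), and with up to 1 in the Esrra start peak only. The peaks with an ERR core had a median fitted change of -0.20 and those without of -0.21. Longer peaks hold more matches, with a median width of 767 bp for peaks with the core and 406 bp for those without.

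In the iWAT peaks of the 6 genes, the ERR element was in 0 of 30 (0.827% of all iWAT peaks), its core in 3, the cAMP response element in 1, the Ppargc1a start peak, the EBF core in 11 and the repeat in 3. The Esrra ERR element lies 529 bases before the principal start, inside the brown fat peak and beyond the end of the iWAT peak. In 32851 RefSeq promoters of 300 bases each, the ERR element was in 0.423%, its core in 4.72%, the cAMP response element in 1.79% and the EBF core in 13.7%. GC content had a median of 46.3% over the Ppargc1a peaks of brown fat and 52.6% over all brown fat peaks, and its part in the fitted changes was not tested.

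The other genes of the pathway were taken from lists. None of the peaks of these lists passed the limma threshold in either tissue, where the smallest adjusted p of all peaks was 0.27 in brown fat and 0.15 in iWAT. The 24 known ERR or PGC-1 targets, genes such as Ucp1, Cycs and Acadm, had 119 peaks in brown fat. This list includes Cox8b, Otop1, Ppara and Ucp1, which are also on the list of brown adipocyte markers described below. Of the 119 peaks, 39 lay below and 6 above flox in every AKO sample, against 8.84% and 8.77% of all brown fat peaks. Their median was -0.15, and 20 were lower and 4 higher at an unadjusted p under 0.05, against 5.59% and 3.46%. The smallest p among them was the Ucp1 peak chr8:83298729-83300383, with 1629, 1143 and 952 normalized reads in flox and 312, 332 and 227 in AKO (-1.93 ± 0.32, limma adjusted p = 0.42). The size of this fitted Ucp1 change was larger than at any of the 91 peaks of the 6 genes. In the other direction the smallest p was at a peak of Vegfa, an angiogenic factor (chr17:45931151-45931639, 0.68 ± 0.20).

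The 24 PGC-1 regulators and partners, among them the kinase and deacetylase genes Prkaa1 and Sirt1, had 132 brown fat peaks. Of these, 12 lay below and 9 above flox in every AKO sample, against 8.84% and 8.77% of all peaks. Their median was -0.02, and 9 were lower and 2 higher at an unadjusted p under 0.05, against 5.59% and 3.46%. Without PC1, 5 were lower and 10 higher, where 2558 and 4435 of all 58558 peaks were. The regulators had their smallest p at Lpin1, which encodes lipin 1, a coactivator partner of PGC-1α (chr12:16395549-16396056, -1.35 ± 0.26), and in the other direction at the coactivator Ncoa1 (chr12:4430305-4430752, 0.73 ± 0.26). At both, the genotypes overlapped. The mitochondrial biogenesis factors, such as Tfam and Nrf1, had 21 peaks at 11 of 16 symbols, of which Twnk and Peo1 name the same gene, with 0 below and 0 above, a median of 0.08 and 1 lower and 0 higher at an unadjusted p under 0.05. Without PC1 that median was -0.09, with 17 of the 21 below 0. Their smallest p in each direction was at an Nrf1 peak (chr6:30039140-30039749, -0.61 ± 0.24) and at the Mterf3 start (chr13:66932609-66933851, 0.31 ± 0.17). The genotypes thus overlapped at all 21 peaks of these factors.

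Of all iWAT peaks, 10.3% had every AKO sample below and 10.6% above every flox sample. At an unadjusted limma p under 0.05, 7.42% were lower and 7.61% higher. In iWAT the target genes had 70 peaks with 3 below and 10 above (median 0.10), and 2 lower and 9 higher at an unadjusted p under 0.05. The smallest p in each direction was at a peak of Lrpprc, a mitochondrial mRNA-binding protein (chr17:84845004-84845309, -0.95 ± 0.30), and again at a Vegfa peak (chr17:45893207-45893421, 0.67 ± 0.18). The regulators had 82 peaks with 13 below and 8 above (median -0.01; 5 lower and 5 higher at an unadjusted p under 0.05), with the smallest p in each direction at Foxo1 (chr3:52458083-52458991, -0.58 ± 0.14) and at Twist1 (chr12:34030362-34030550, 0.65 ± 0.20). The biogenesis factors had 15 peaks with 3 below and 0 above (median -0.06; 1 lower and 0 higher). The lowest of these p-values was at an Nrf1 peak (chr6:30081410-30082128), with 61.3, 60.04 and 61.1 normalized reads in flox and 34.6, 34.2 and 38.5 in AKO (-0.75 ± 0.12, limma adjusted p = 0.15), and the smallest p in the other direction was at Yy1 (chr12:108757752-108758428, 0.21 ± 0.15). Nrf1, a nuclear respiratory factor that PGC-1α coactivates, was below flox without overlap there.

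Markers of cell types were summed in the same samples. Of all brown fat peaks, 8.84% lay below and 8.77% above flox in every AKO sample. The brown adipocyte list shares 4 genes, Cox8b, Otop1, Ppara and Ucp1, with the target list. In brown fat all 8 adipocyte and all 9 brown adipocyte marker genes had peaks. Of the 60 adipocyte marker peaks, 22 lay below and 3 above flox (median -0.20), and their summed normalized reads were 26969 to 31885 in flox and 18621 to 25512 in AKO. Of the 56 brown adipocyte marker peaks, 25 lay below and 0 above (median -0.38), with sums of 26544 to 33035 in flox and 18275 to 21149 in AKO. The preadipocyte and fibroblast markers had 19 peaks at 6 of 7 genes with 0 below and 9 above (median 0.14) and sums of 2376 to 2429 in flox and 2510 to 2565 in AKO. The endothelial markers had 37 peaks with 2 below and 5 above (sums 3370 to 3621 and 3436 to 4353), and the Schwann cell markers 7 with 0 and 1 (1284 to 1370 and 1248 to 1451). Muscle markers had 8 peaks at 4 of 10 genes, with none at Ckm, Actn3 or Myod1, and sums of 599 to 743 in flox and 635 to 879 in AKO. The immune markers had 3 peaks at 3 of 9 genes, with none at Ptprc or Csf1r, and sums of 340 to 387 and 349 to 394. At these last 2 lists the genotypes overlapped at every peak. The part of the cell makeup in the lower PGC-1 peaks was not tested.

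Of all iWAT peaks, 10.3% lay below and 10.6% above flox in every AKO sample. In iWAT, the adipocyte markers had 30 peaks with 4 below and 2 above (sums 4065 to 5297 in flox and 4353 to 4690 in AKO), and the brown adipocyte markers 22 with 1 below and 8 above (median 0.17, sums 1989 to 2106 in flox and 2282 to 2579 in AKO). The immune markers had 10 peaks with 2 below and 1 above (515 to 540 in flox and 412 to 484 in AKO), the endothelial markers 15 with 2 and 2 (850 to 961 and 787 to 852), and the preadipocyte markers 21 with 2 and 2 (1930 to 2153 and 1897 to 2079). The muscle markers had 3 peaks with 1 below and 0 above (797 to 997 and 757 to 789), and the Schwann cell markers 3 with 0 and 0 (207 to 229 and 196 to 234). Higher brown adipocyte marker sums in AKO aliquots thus stood beside the higher Ppargc1b peaks, and their part in them was not tested.

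The start peaks of other genes were ranked by the Pearson r of their log2 values with those of Ppargc1a and of Esrra over the 6 brown fat samples, as a description. Closest to Ppargc1a among 14073 peaks were those of Chpt1, Ptprs and Gtpbp10, each with an r of 0.993. The Ppargc1a start peak itself had an r of -0.84 with the PC1 score and of 0.75 with the log2 number of reads in peaks. Closest to Esrra among 14074 peaks were Eif5 (r = 0.9995), Tor1aip2 (0.999) and Kbtbd2 (0.999), and Esrra had an r of -0.96 with PC1 and 0.95 with the log2 reads. All of these values come from the same 6 libraries and share their depth and PC1.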

How the data were processed

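Per the labels and the study's methods, nuclei of frozen fat were tagged by transposase (50000 nuclei per reaction by the labels, another number in the methods), 2 reactions per sample were merged, and 38 bp read pairs were mapped to mm10 with BWA 0.7.17-r1188. The iWAT reads came from another instrument than the brown fat reads, were longer, and were trimmed to 38 bp. The authors removed duplicates (Picard 2.8.14), kept autosomal reads of high mapping quality, called broad peaks (MACS2 2.1.1.20160309), kept those found in more than 1 replicate of a genotype, counted reads with bedtools 2.27.1, and gave each peak a gene with HOMER. The signal values that the authors deposited are these counts over a DESeq2 1.20.0 size factor per sample. The tables also hold the authors' log2 fold changes and p-values of AKO against flox, which were not used. No column of values per sample was left out (0).

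Dividing by the smallest step of each column gave whole reads for 100% of the values (within 3.3e-06), on which DESeq2 and edgeR called 174 and 84 brown fat and 420 and 1846 iWAT peaks. The median peak held 70 to 226 reads in brown fat and 62 to 98 in iWAT samples, which limits the precision at weak peaks. Each table was fitted on its own, over all its peaks, by limma (lmFit, then eBayes) on log2(normalized reads + 1), two-sided, with a PC1 covariate for brown fat alone, and Benjamini-Hochberg adjustment. The fits were tested on simulated data with no axis like PC1 built in. There, recovery of the right sign was required only of the fits without a PC1 covariate. The alternatives were DESeq2, edgeR, limma with a trend, other normalizations, pseudocounts of 0.1 and 10, a minimum of 10 reads in every sample, a threshold of 0.05, PC1 of the 500 most variable peaks, no PC1 in brown fat and PC1 in iWAT, replicate blocks, a limit of 100 kb, each sample left out and, added after seeing the data, DESeq2 without PC1 and counts of signs.

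The 6 genes, the lists and the tests were chosen with earlier results of these data known. Given in full were, per gene and tissue, the peak over a start site with the largest mean and the peak with the smallest p, from each list the smallest p in each direction, and peaks that overlap between the tissues. Other peaks named were chosen after their values were seen. Distances run from the nearest GENCODE M21 start of the gene to the peak's midpoint. Whether peak starts count from 0 or 1 is not stated, and sequences were read with both ends included. Tools were R 4.3.3, limma 3.58.1, edgeR 4.0.16, DESeq2 1.42.0 and Python 3.11.15.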

Additional observations from a re-analysis of the deposited data

Results flagged for a closer look

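The peak 37.9 kb upstream of Ppargc1b was singled out because the genotypes separate in opposite directions in the tissues. In brown fat (chr18:61437771-61438827) every AKO sample lay below every flox sample, with a fitted log2 fold change of -0.41, and in iWAT (chr18:61438114-61438441) every AKO sample lay above every flox sample, with 0.53. The difference between the tissues was not tested, and no limma call was made in either. The same pattern was found at 0.83% of all pairs of overlapping peaks.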

How the results depend on the processing

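The count of calls among the peaks of the 6 genes stayed at 0 in brown fat under all alternatives but DESeq2 without PC1, which called 3 lower, and in iWAT under all but edgeR and limma with a trend, which each called 1 lower and 1 higher. The brown fat count higher in AKO at an unadjusted p under 0.05, 1 in the reported fit, was 0 with DESeq2, 3 with DESeq2 without PC1, 2 with cyclic loess, 2 without PC1, 4 with a replicate block and no PC1, and 2 with a replicate block and PC1. The lower count, 17, was 11 with a replicate block and PC1. Within 100 kb of a start it was 8, in a smaller set that leaves out 19 of the 33 Ppargc1a and 10 of the 24 Esrrg peaks. In iWAT the higher count, 6, was 0 with PC1 added, where PC1 nearly equals genotype, and the lower count, 2, was 1 with a replicate block. Leaving out each sample gave 8 to 20 lower and 0 to 2 higher in brown fat, and 0 to 2 lower and 4 to 6 higher in iWAT. The cause of these moves was not tested.

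Deviations of same-numbered flox and AKO samples from their genotype means had correlations of 0.49, 0.063 and -0.24 in brown fat. In iWAT these were -0.039, -0.050 and -0.057. Differently numbered brown fat samples reached -0.54 (flox 1 with AKO 2) and 0.48 (flox 3 with AKO 2). Deviations from a mean of 3 samples depend on each other, so these values cannot show whether same-numbered samples were handled together. The blocks changed no call.

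The fitted sign turned at Pprc1 in brown fat (-0.090 with DESeq2 without PC1, -0.10 without PC1 and with a block without PC1), at Esrra in brown fat (-0.24, -0.25 and -0.25 in the same settings), and at the Esrrb start, where leaving out samples gave -0.10 (without AKO sample 3) to 0.26. With PC1 added in iWAT it turned at the Ppargc1a start (-3.94), Pprc1 (0.53) and the Esrrg start (-1.60). It also turned in iWAT at Esrra (0.0013 with cyclic loess, 0.018 without AKO sample 2, 0.032 without flox sample 3, with -0.038 as the lowest value) and at the Esrrg start, where leaving out samples gave -0.14 (without flox sample 1) to 0.23. None of these values passed the limma threshold.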
